A study of Oryza sativa Indica Group with 12 samples.

Results

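The end and the start of anther development in rice were compared: anthers filled with trinucleate pollen (TPA) against pre-meiotic anthers (PMA). They are 6 of the 12 Affymetrix rice arrays of a study that profiled anthers at 4 stages, and they were chosen by their stage labels alone, with 3 biological replicates each. TPA anthers were 2000 to 2500 µm long and PMA anthers 350 to 450 µm. Both came from field-grown plants of the indica variety IR64, with no mutation and no treatment, and each replicate pooled anthers of several plants, so that the spread between arrays is that between pools. The other stages, anthers in meiosis (MA) and anthers with single-celled pollen (SCP), enter the statistical fit and are given as levels in between. The anthers were taken whole, so that a transcript that was lower in TPA may stem from fewer cells of a type or from less RNA per cell, and these cannot be told apart.

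A pre-meiotic anther is a small organ of dividing cells. Its wall layers and the tapetum, which later feeds the pollen, are being laid down around the sporogenous cells that will enter meiosis. At the end, the pollen grain holds a large vegetative cell, which will grow the pollen tube, and sperm cells inside it. The tapetum degenerates in between, though the study located a transcript by in situ hybridization in the tapetal layer at the trinucleate stage. Mature grass pollen is known to store transcripts for tube growth, which runs on calcium signals, actin, cell wall loosening and ion uptake.

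The values are GC-RMA intensities made by the authors, called signal here, on a linear scale on which silent genes lie near 5. A level of 10 or less was taken as absent, as the study did. Changes are TPA minus PMA on the log2 scale, with their standard error, from a limma fit of all 12 arrays. A change was called where it was at least 2-fold and its p, after Benjamini-Hochberg correction, was 0.005 or less. Arrays correlated with r of 0.967 to 0.984 within TPA, 0.989 to 0.992 within PMA and 0.770 to 0.791 between them, across 57258 rice probe sets. The upper quartile of the signal was 64.2 to 72.7 on TPA arrays and 107 to 115 on PMA arrays, although the authors normalized them together. The 9 hybridization control probe sets, for RNA added in fixed amounts, were all brighter in TPA, by a median log2 of 1.55, and their part in the results was not tested. If all arrays were moved to the same median of the expressed probe sets (the common median below), each TPA minus PMA difference would rise by 0.586 on the log2 scale, and this is stated where it turns the balance of a list, a median or a printed log2 change. Ratios of 3′ to 5′ control probe sets moved in no one direction. For GAPDH the log2 ratio was 1.84 to 1.94 in TPA and 1.36 to 1.37 in PMA, and for actin 0.98 to 1.24 in TPA and 2.48 to 2.85 in PMA.

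The stage labels were checked against cell type markers. All 7 measured markers of the young anther and its sporogenous cells were called lower in TPA, and their summed signal was 164 to 320 on TPA arrays and 16297 to 18220 on PMA arrays. With only the 6 TPA and PMA arrays in the fit TDL1A and OSH1 of these were not called, and PAIR1, at 5.72 ± 0.111 in TPA and 12.5 ± 1.67 in PMA, was not called with the common median, with values under 10 set to 10, with noisier arrays given less weight (array weights) or without PMA replicate 1. Of 7 markers of mature pollen, 5 were called higher, while ADF7 and RAC7, listed as pollen markers, were not called. The 7 summed to 41126 to 49079 in TPA and 4052 to 6010 in PMA. Nearly all of the PMA sum was ADF7, which went the other way, at 1475 in TPA and 4751 in PMA (log2 -1.91). The 5 called markers each averaged under 10 in PMA. The 7 tapetum markers summed to 750 to 4589 in TPA, where most of it was RTS, and to 1178 to 2175 in PMA. Pistil markers stayed at sums of 43.2 to 62.0 in TPA and 40.5 to 59.9 in PMA. Markers of lemma and palea summed to 1727 to 2358 in TPA and 2204 to 2557 in PMA, most of it MADS14, and leaf markers to 178 to 1202 in TPA and 322 to 1157 in PMA. The part of lemma, palea and leaf tissue in the results was not tested.

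The 2 ends of anther development differed widely. Of the 57258 probe sets, 14081 (24.6%) were called, 4914 (8.58%) higher and 9167 (16.0%) lower in TPA. Counted as genes, with the brightest probe set that belongs to 1 gene alone, 8458 of 17905 genes (47.2%) were called, 2762 (15.4%) higher and 5696 (31.8%) lower. With the common median 56.5% of the 15077 genes over 10 in either stage were called, 4033 (26.7%) higher and 4488 (29.8%) lower, so that the excess of falls depends on the scaling. The arrays of both stages did not overlap in 74.5% of genes and 66.5% of probe sets. These 38103 probe sets outnumber the 26788 with a mean over 10 in either stage, so that silent probe sets are among them. Near the floor the arrays were already offset, with medians over all rice probe sets of 7.18 to 7.33 in TPA and 6.83 to 6.93 in PMA.

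The rises and the falls differed in shape. At 2-fold there were 2762 genes higher and 5696 lower, at 16-fold 943 higher and 1084 lower, at 64-fold 553 higher and 212 lower, and at 1024-fold 165 higher and 3 lower. Genes at or under 10 on every PMA array and over 1000 on every TPA array numbered 294, and 238 of these were at or under 10 in MA and SCP as well. The reverse, over 1000 on every PMA array and at or under 10 on every TPA array, was met by 13 genes, and none of these had a mean at or under 10 in MA or in SCP. The genes over 10000 numbered 214 in TPA and 179 in PMA, and those over 100 numbered 9171 in TPA and 10463 in PMA. The 1000 brightest genes made up 54.4 to 55.5% of the summed signal in TPA and 50.7 to 51.0% in PMA. Of 3444 genes with more than 1 probe set, 907 had more than 1 called, and 858 of these were called the same way by each called one. Another 994 had only 1 of their several probe sets called.

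**Figure D1:**
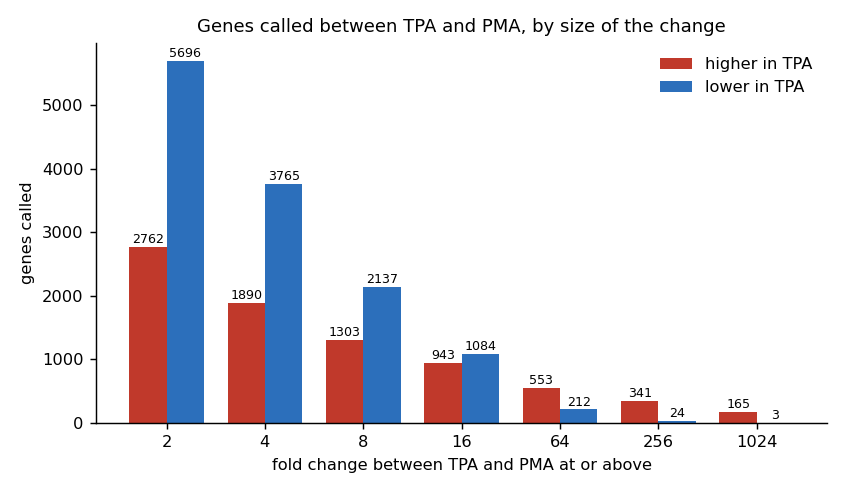
Number of genes called higher and lower in TPA than in PMA at or above each fold on the horizontal axis (17905 genes, 1 probe set each). Falls outnumber rises at 2-fold (2762 higher, 5696 lower), and rises outnumber falls at 1024-fold (165 higher, 3 lower).

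Among the 2452 genes with a symbol, the 15 largest rises were nearly all transcripts that were absent before meiosis and very abundant at maturity. EXPB10, a beta-expansin, of the group of grass pollen allergens that loosen cell walls, gave signals of 25977, 23984 and 25428 on the TPA arrays, against 4.17, 4.17 and 4.22 on the PMA arrays. That was a log2 change of 12.55 ± 0.025 (SE, adjusted p = 4.34e-17), or at least 2512-fold with values under 10 set to 10. ADF9, an actin depolymerizing factor, which severs actin filaments, was at 21353, 19431 and 23541 in TPA and at 5.0, 4.99 and 5.08 in PMA (log2 12.06 ± 0.22, adjusted p = 2.82e-10). CPK2, a calcium-dependent protein kinase, was at 17216, 16970.3 and 19730.4 in TPA and at 5.54, 5.53 and 5.62 in PMA (log2 11.65 ± 0.062). No TPA array came near a PMA array for these genes. The sugar transporter SWEET5 followed, with 10519, 11048 and 13939 in TPA and 3.97, 3.96 and 4.0 in PMA (log2 11.53 ± 0.22). Next came the kinases CPK22 (log2 11.53) and CPK29 (11.41), the expansins EXPB9 (11.44) and EXPA32 (11.25), and ADF6 (11.20).

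The remaining large rises belonged to metabolism and transport. AldC-alpha, a fructose-bisphosphate aldolase of glycolysis, was at 11808, 11804 and 12985 in TPA and at 5.09, 5.16 and 5.20 in PMA (log2 11.21 ± 0.033). YSL7, of the Yellow Stripe-like family of oligopeptide and metal chelate transporters, was at 16615, 20754 and 20266 in TPA and at 8.89, 16.8 and 8.82 in PMA (log2 10.77 ± 0.24). NifU1, of a family of iron-sulphur cluster scaffolds, changed by 10.94 ± 0.33 and Chia1d, a chitinase, by 10.70 ± 0.37. The kinase CIPK30 (10.43) and the calmodulin-like CML28 (10.27) complete the 15. Every TPA array lay at 4875 or above for all 15 genes, and no PMA array above 16.8. For 13 of the 15 all PMA arrays were at or under 10, and for 9 the MA and SCP means were too. SWEET5 and Chia1d were already on in SCP, at 1210.1 and 11749.9, and Chia1d at 4081 in MA. NifU1 is measured by a probe set that can match related transcripts.

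**Figure D2:**
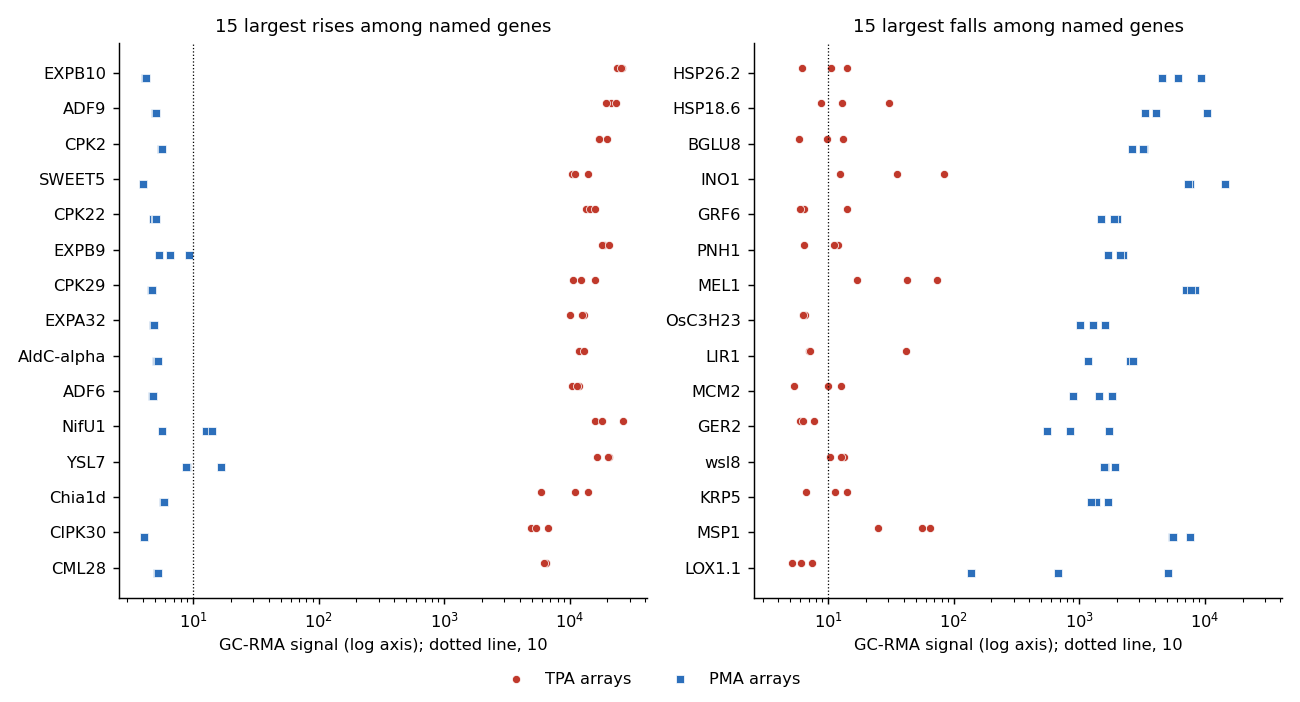
Signal on each array (log axis) of the 15 genes with a symbol that rose most and the 15 that fell most, TPA as circles above PMA as squares, with a dotted line at 10. All TPA values of the rises are 4875 or more and all PMA values 16.8 or less, and all TPA values of the falls are 83.6 or less and all PMA values 137 or more.

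The brightest genes of the 2 stages differed as well. The signal of different probe sets also depends on their probes, so the order given here is one of signal and not of transcript number. In TPA the highest level of a gene with a symbol was that of ACT1, an actin, which averaged 31743 ± 512 in TPA and 15879 ± 889.7 in PMA (SD, n = 3 each). Its log2 change of 1.0 ± 0.036 lay at the 2-fold limit, and the call was lost with quantile normalization and without TPA replicate 2 or PMA replicate 2. After it came EXPB10, GOS2, a translation initiation factor, ADF9, NifU1, the ATP synthase subunit gene atpB, YSL7, EXPB9, the 14-3-3 protein GF14F and CPK2. Of these, atpB was at 20145 ± 3113 in TPA and 6271 ± 181 in PMA (log2 1.67 ± 0.092). GOS2 (22289 ± 1144 in TPA, 28437 ± 4258 in PMA) and GF14F (18241 ± 528 in TPA, 16815 ± 1240.1 in PMA) were bright at both ends, and the others of the list were among the large rises.

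In PMA the brightest was EF-1-alpha, which brings aminoacyl-tRNA to the ribosome, at 9180.1 ± 842 in TPA and 31214 ± 1529 in PMA (log2 -1.77 ± 0.07). The HSP90 chaperones followed: HSP81-3 averaged 2848 ± 417 in TPA and 28956 ± 2749.7 in PMA, and HSP81-2 averaged 2467 ± 288 in TPA and 21706 ± 2670.0 in PMA. DAHPS2, the entry enzyme of the shikimate pathway, was at 6793 in TPA and 27138 in PMA, and the ribosomal proteins RPS21 (6731 in TPA, 25729 in PMA) and RPL39B (3829 in TPA, 18547 in PMA) stood beside it. The other bright PMA genes were GOS2, APX1, HAK5 and the tubulin TID1. APX1, an ascorbate peroxidase, was called lower (log2 -1.61 ± 0.34), but not with the common median, with only the 6 arrays, with values under 10 set to 10, with the replicate numbers of the labels as a block (the replicate block), or without TPA replicate 1 or any 1 of the PMA replicates. The probe sets of ACT1, NifU1, EF-1-alpha, HSP81-3, DAHPS2, RPL39B and TID1 can match related transcripts.

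Calcium signalling held many of the strongest rises. The genes of calcium-dependent protein kinases and calcium sensors numbered 88, of which 28 were higher and 17 lower in TPA (21 and 11 with only the 6 arrays), beside 15.4% higher and 31.8% lower of all genes. Their median log2 change was -0.04, and 0.55 with the common median, beside -0.25 and 0.33 for all genes. The calcium-dependent protein kinases (CPKs) bind calcium through their own sensor domain. Of 20 CPKs, 6 were higher and 5 lower (2 lower with only the 6 arrays). CPK2, CPK22, CPK29 and CPK6 made the upper group: CPK6 was at 2936, 2898 and 3196 in TPA and at 5.11, 5.20 and 5.21 in PMA (log2 9.18 ± 0.33), and CPK21 averaged 4992 in TPA and 20.4 in PMA. These 5 kinases were at most at 73.2 in MA and 92.5 in SCP. Other CPKs were the kinases of the young anther. CPK18 averaged 99.3 in TPA and 1215 in PMA (log2 -3.70), and CPK24 averaged 111 in TPA and 1294 in PMA (-3.67). CPK13, at 1346 in TPA and 5701 in PMA, and CPK5 were called lower only in the fit of all 12 arrays, not with the 6 alone.

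CIPK kinases are switched on by the calcium sensors called CBLs. Of 31 CBL and CIPK genes, 12 (38.7%) were higher and 5 (16.1%) lower, beside 15.4% and 31.8% of all genes. With only the 6 arrays 9 were higher and 3 lower. CIPK30 was at 4875, 5367 and 6663 in TPA and at 4.04, 4.04 and 4.07 in PMA. CIPK20 averaged 4789 in TPA and 5.41 in PMA (log2 9.79), CIPK5 averaged 14895 in TPA and 70.6 in PMA (7.90), and the sensor CBL4 averaged 574 in TPA and 4.60 in PMA (6.65). In the other direction CIPK6 was at 273, 246 and 270.1 in TPA and at 5911, 5228 and 5912 in PMA (log2 -4.43 ± 0.087), a fall shared by all arrays. Among 26 calmodulins and calmodulin-like proteins, which are calcium sensors without a kinase, 8 were higher and 3 lower (5 and 3 with only the 6 arrays). CML28 (6413 in TPA, 5.18 in PMA), CML1 (4797 in TPA, 7.73 in PMA), CML32 (8147 in TPA, 21.5 in PMA) and CML11 (1493 in TPA, 5.02 in PMA) led, while CML14 averaged 7.25 in TPA and 371 in PMA (log2 -5.61). The calcium pump gene ACA1, whose product moves calcium out of the cytosol, averaged 3484 in TPA and 4.08 in PMA (log2 9.73 ± 0.43). The calmodulins themselves were not called: the 2 CAM genes were at 6729 and 5624 in TPA and at 5872 and 5725 in PMA.

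The actin and tubulin families held both rises and falls. Of 33 actin and actin-binding genes, 9 (27.3%) were higher and 12 (36.4%) lower, beside 15.4% and 31.8% of all genes. This turned to 10 higher and 8 lower with the common median. Of 9 actin depolymerizing factors, ADF9, ADF6 and ADF1 were higher, and ADF4 was lower but not with the common median. ADF1 was at 13313, 14178 and 14644 in TPA and at 14.6, 9.89 and 13.5 in PMA (log2 10.14 ± 0.12), and ADF2, not called, at 3903 ± 727 in TPA and 4234 ± 725 in PMA. Villins bundle actin filaments. VLN4 averaged 10627 in TPA and 223 in PMA (log2 5.82) and VLN2 averaged 12768 in TPA and 2879.8 in PMA (2.17), whereas VLN1 averaged 12.5 in TPA and 132 in PMA (-3.41). Of 10 actins and actin-related proteins 6 were lower, among them ARP4 (294 in TPA, 3534 in PMA), a subunit of chromatin complexes, and ARP3 (11.2 in TPA, 159 in PMA), part of the complex that starts branched actin filaments. ARP8 rose, to 4866 in TPA, against 646 in PMA.

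Among the 11 tubulins, the subunits of microtubules, 2 (18.2%) were higher and 7 (63.6%) lower, beside 15.4% and 31.8% of all genes. With only the 6 arrays 1 was higher and 4 lower. The beta-tubulin TUB8 gave 7955, 9318 and 10739 in TPA and 8.94, 6.56 and 8.64 in PMA (log2 10.18 ± 0.18), and lay at 8.73 in MA and 27 in SCP. TUB6 was high at both ends, with 9777 in TPA and 3642 in PMA (log2 1.46 ± 0.20), and was not called with only the 6 arrays. The largest fall was that of TUB2, at 170.3, 89.8 and 18.8 in TPA and 6094, 5671 and 5844 in PMA (log2 -6.47 ± 0.64). Its TPA arrays were spread widely, and the calls of TUB2, TUB1 and TUB4 ended with only the 6 arrays in the fit. TUB5 averaged 4398 in TPA and 15218 in PMA (-1.79). Rac/Rop GTPases switch actin and microtubule growth at the pollen tube tip. Of 7, RAC6 was higher, at 10368 ± 414 in TPA and 4320.3 ± 471 in PMA (log2 1.27 ± 0.079), and 5 were lower (2 with only the 6 arrays), among them RAC3 (798 in TPA, 3735 in PMA) and RAC5 (664 in TPA, 3481 in PMA), though RAC5 not with 6 arrays alone.

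**Figure D3:**
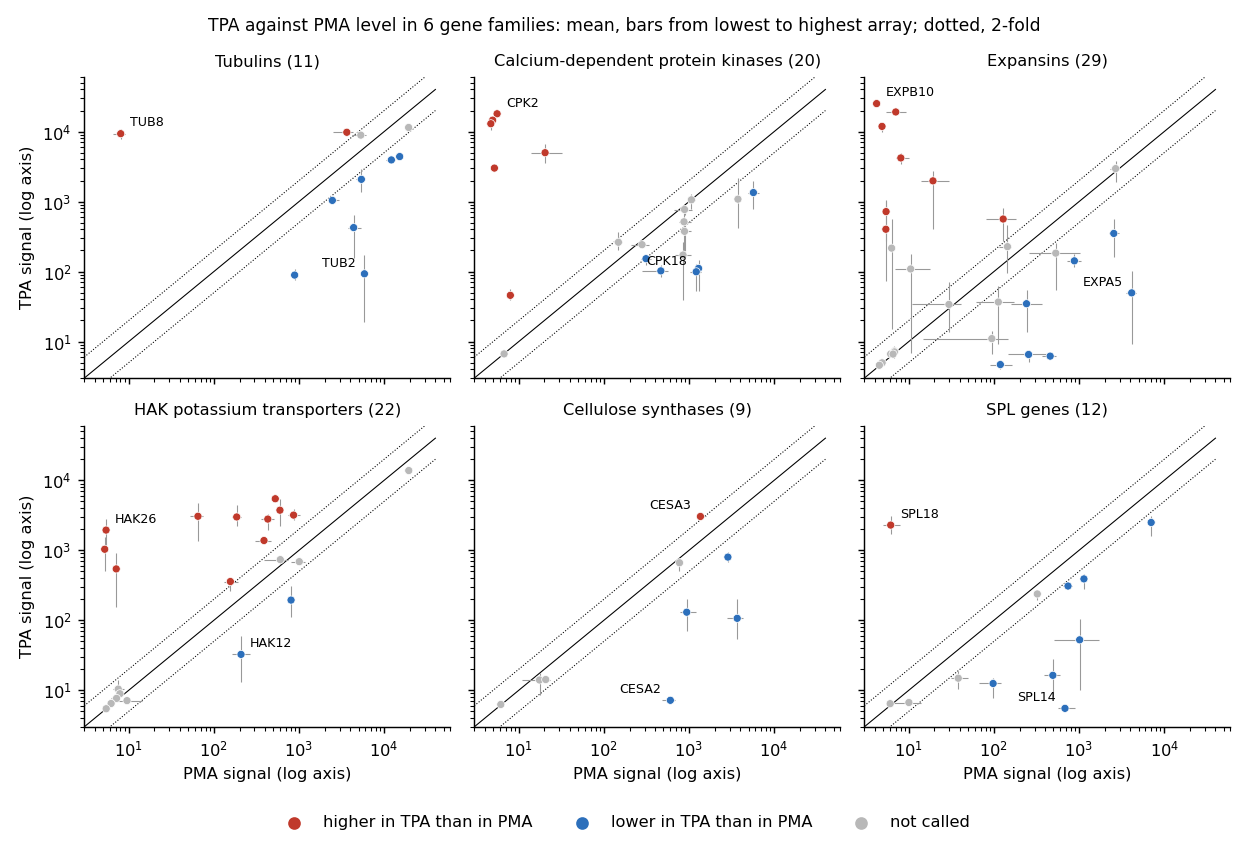
Level in TPA (vertical) against level in PMA (horizontal), both on log axes, for the genes of 6 families (11 tubulins, 20 CPKs, 29 expansins, 22 HAK potassium transporters, 9 cellulose synthases, 12 SPL genes). Points are means of 3 arrays and bars run from the lowest to the highest array. Genes such as TUB8, CPK2 and EXPB10 lie far above the diagonal, and TUB2, EXPA5 and SPL14 far below.

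Cell wall genes were called in both directions. Expansins loosen walls without cutting them. Of 29 genes 8 (27.6%) were higher and 7 (24.1%) lower, beside 15.4% and 31.8% of all genes. With only the 6 arrays 5 were higher and 4 lower. Of the 11 beta-expansins 4 were higher: EXPB10, EXPB9, EXPB2 (719 in TPA, 5.41 in PMA) and EXPB3 (1977 in TPA, 19.2 in PMA, not with 6 arrays). EXPB9 gave 18640.5, 17964 and 20624 in TPA and 5.34, 6.54 and 9.20 in PMA. EXPB17 and EXPB7 were lower, at 6.19 and 6.53 in TPA and 458 and 255 in PMA. Of the 14 alpha-expansins 3 were higher and 5 lower (2 and 2 with only the 6 arrays). EXPA32 gave 9969, 13079.5 and 12559.5 in TPA and 4.80, 4.83 and 4.91 in PMA, EXPA26 averaged 4202 in TPA and 8.06 in PMA (log2 9.03), and EXPA16 was at 4.69 in TPA and 119 in PMA (-4.63). EXPA5, an alpha-expansin, was at 102, 9.31 and 37.8 in TPA and 4282, 3549 and 4625 in PMA (log2 -6.97 ± 0.68), a call that the uneven TPA arrays did not keep with only 6 arrays. EXPB4, at 2961 ± 976 in TPA and 2685 ± 320.4 in PMA, was not called.

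Of 42 genes for cellulose, callose and xyloglucan, 8 were higher and 13 lower (7 and 8 with only the 6 arrays), and their median of -0.28 turned to 0.30 with the common median. Among the 9 cellulose synthases CESA3 rose to 3043 in TPA, against 1361 in PMA (log2 1.17 ± 0.086). CESA2 averaged 7.19 in TPA and 603 in PMA (log2 -6.38 ± 0.16), CESA6 averaged 107 in TPA and 3679 in PMA (-5.34 ± 0.43), and CESA1 averaged 799.5 in TPA and 2861 in PMA (-1.85). The cellulose synthase-like genes differed likewise. CSLD5, of a group known for tip growth, gave 3406, 3533 and 3794 in TPA and 6.05, 6.04 and 6.18 in PMA (log2 9.20 ± 0.11), and CSLA9, of the mannan synthase group, gave 7.42, 8.23 and 6.24 in TPA and 629, 867 and 835 in PMA (-6.73 ± 0.14). Endoglucanases cut glucan chains. GLU15 averaged 2126 in TPA and 5.91 in PMA and was already at 1936 in SCP, while GLU8 averaged 4.96 in TPA and 337 in PMA. Of 9 genes with a BURP domain or coding for pectin methylesterase inhibitors, none was higher and 2 were lower, PMEI8 (log2 -4.0) and BURP3 (-1.79), though BURP3 not with 6 arrays.

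Sugar supply genes held more rises than falls. Of 42 sucrose and sugar transport genes 13 were higher and 3 lower, with a median log2 of 0.31. SWEETs let sugars leave and enter cells by diffusion, and of 12 none was lower and 4 were higher: SWEET5, SWEET15 (1869.9 in TPA, 8.16 in PMA, 923 in SCP), SWEET6, not with 6 arrays, and SWEET2A. SWEET4 was at 6219.6 ± 1043 in TPA and 5413 ± 1105 in PMA and was not called. The monosaccharide transporter MST5 gave 3471, 4569 and 1709 in TPA and 5.55, 5.58 and 5.67 in PMA (log2 9.07 ± 0.29). SUT1, a sucrose transporter, averaged 731 in TPA and 4.39 in PMA (log2 7.19). MST3 was the one transporter of the list that fell, at 15.9 in TPA and 217 in PMA, with a maximum of 803 in MA, and it was not called with 6 arrays.

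Hexokinases, which phosphorylate glucose, rose in 4 of 7 cases and fell in none, beside 15.4% higher and 31.8% lower of all genes. HXK5 led, at 10175 in TPA and 262 in PMA (log2 5.28 ± 0.11). The neutral invertase NIN3 averaged 6582 in TPA and 686 in PMA, and the sucrose phosphate synthase SPS3 averaged 2662 in TPA and 390.0 in PMA. Sucrose synthase 1 (SUS1) was among the falls, with 99.7, 69.6 and 7.72 in TPA and 1705, 1584 and 2709.5 in PMA (log2 -5.69 ± 0.80), lost with only 6 arrays. SUS2 showed 5730.1, 1456 and 10582 in TPA and 3829, 3066 and 5874 in PMA, so that the arrays overlap, and peaked at 27660.4 in SCP. Starch genes (12) split into 3 higher (25.0%) and 4 lower (33.3%, near the share of all genes). With only the 6 arrays the counts were 3 and 2. Granule-bound starch synthase GBSSI, the amylose enzyme, gave 11498, 15189.6 and 5382 in TPA and 40.2, 7.74 and 78.2 in PMA (log2 8.40 ± 0.79), and the branching enzyme SBE1 averaged 3528 ± 358 in TPA and 969 ± 62 in PMA (log2 1.86 ± 0.077). SSII-1, a soluble starch synthase, averaged 13.1 in TPA and 578 in PMA, and the alpha-amylase AMY1.2 averaged 5.08 in TPA and 285 in PMA. GBSSI and SBE1 are read by probe sets that can match related transcripts.

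Ion transporters were another group with more rises than falls. Of 77 genes 23 (29.9%) were higher and 7 (9.09%) lower, beside 15.4% and 31.8% of all genes. With only the 6 arrays 20 were higher and 2 lower. The median log2 was 0.18, beside -0.25 for all genes. The HAK family takes up potassium, and of 22 members 11 were higher and 2 lower (10 and 0 with only the 6 arrays). HAK26 gave 1923, 2823 and 1088 in TPA and 5.41, 5.36 and 5.47 in PMA (log2 8.38 ± 0.27), and HAK20 averaged 1035 in TPA and 5.22 in PMA (7.49). HAK10 (5453 in TPA, 526 in PMA), HAK1 (3741 in TPA, 597 in PMA), HAK15 (3183 in TPA, 864 in PMA) and HAK17 (3063 in TPA, 65 in PMA) were called higher as well. HAK5 was bright at both ends, at 13786 ± 316 in TPA and 19461 ± 1278 in PMA, a log2 change of -0.50 with a 95% interval of -0.62 to -0.37, which turned to 0.091 with the common median. HAK12 and HAK9 fell in the fit of 12 arrays and not in that of 6. HAK13 was near the floor at both ends and at 446 in MA and 1439 in SCP.

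Of 15 Yellow Stripe-like transporters 5 (33.3%) were higher and 2 (13.3%) lower, beside 15.4% and 31.8% of all genes. The counts were 5 and 1 with only the 6 arrays, and 6 and 1 with the common median. After YSL7, YSL4 gave 6522, 8183 and 1700.4 in TPA and 5.84, 5.86 and 5.92 in PMA (log2 9.58 ± 0.48), with replicate 3 well below the other TPA arrays. YSL8 (1847 in TPA, 5.95 in PMA), YSL18 (1332 in TPA, 6.40 in PMA) and YSL1 (1124 in TPA, 6.38 in PMA) were absent at the other stages, and YSL12 fell to 10.1 in TPA, against 110.2 in PMA. NRAMP6, of a family of metal transporters, averaged 3819 in TPA and 97.5 in PMA. Aquaporins are water channels, and 7 of 25 (28.0%) were higher and 4 (16.0%) lower (6 and 1 with only the 6 arrays). The tonoplast channel TIP1-2 gave 7969.9, 7607 and 5472 in TPA and 5.94, 5.99 and 8.16 in PMA (log2 10.03 ± 0.21). PIP2-2 averaged 4253 in TPA and 29.9 in PMA, SIP2-1 averaged 3058 in TPA and 71.2 in PMA, and PIP2-6 fell to 191, 189 and 34.9 in TPA, against 7146, 5556 and 8100.2 in PMA (log2 -5.99 ± 0.56). TIP2-2 stayed within 2-fold, at 12642 ± 2957 in TPA and 9894 ± 2255 in PMA.

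Gibberellin genes rose at several steps of the pathway. Of 17 genes placed by symbol in gibberellin metabolism and related diterpenoid families, 8 (47.1%) were higher and 1 (5.88%) lower. The shares of all genes were 15.4% and 31.8%. With only the 6 arrays 4 were higher. The symbols do not separate gibberellin enzymes from those of other diterpenoids. CPS2 is counted among the rises, and CYP701A8 is the 1 fall. CPS1 catalyses the first step, and gave 5758, 6539 and 5997 in TPA and 53.9, 26.3 and 15.6 in PMA (log2 7.76 ± 0.52). KS1, for the next step, averaged 843 in TPA and 372 in PMA (log2 1.22 ± 0.19, not with 6 arrays), and KO2, an ent-kaurene oxidase, averaged 1165 in TPA and 94 in PMA (3.72 ± 0.25). KAO, which makes the first gibberellin, gave 8499, 10747 and 5682 in TPA and 6.41, 6.40 and 7.80 in PMA (log2 10.20 ± 0.77), and GA20OX3, a later oxidase, averaged 2153 in TPA and 194 in PMA (3.34, not with 6 arrays). EUI1, which inactivates gibberellins, rose too, to 746, 973 and 509 in TPA, against 5.34, 5.33 and 5.39 in PMA (log2 7.07 ± 0.32).

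Jasmonate genes did not share a direction. Of 34, 4 (11.8%) were higher and 10 (29.4%) lower, beside 15.4% and 31.8% of all genes. The counts were 7 and 7 with the common median, and 1 and 4 with only the 6 arrays. JAZ proteins repress the jasmonate response. JAZ8 gave 155, 156 and 228 in TPA and 5734, 2282 and 2166 in PMA (log2 -4.11 ± 0.42), and JAZ7 averaged 1509 in TPA and 11596 in PMA, not called with 6 arrays. JAZ9 averaged 7084 in TPA and 1392 in PMA and was called higher, again not with 6. The lipoxygenase LOX5 averaged 253 ± 122 in TPA and 5157 ± 285 in PMA (log2 -4.49 ± 0.38).

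Of 91 auxin and cytokinin genes, 12 (13.2%) were higher and 24 (26.4%) lower, beside 15.4% and 31.8% of all genes. With the common median this turned to 24 higher and 19 lower. Auxin response factors (ARFs) bind auxin-regulated promoters, and of 17, 1 was higher and 9 lower (3 and 8 with the common median). ARF17 gave 29, 15.5 and 34.8 in TPA and 644, 664 and 725 in PMA (log2 -4.76 ± 0.25), and ARF4 (959 in TPA, 5438 in PMA) and ARF23 (772 in TPA, 4774 in PMA) fell as well. GH3 enzymes attach amino acids to hormones. GH3.2 gave 2879, 2876 and 3032 in TPA and 12.7, 8.34 and 9.97 in PMA (log2 8.17 ± 0.23), and GH3-8 averaged 12311 in TPA and 984 in PMA (3.72). IAA14, an Aux/IAA repressor, averaged 1156 ± 246 in TPA and 86.4 ± 40.8 in PMA (log2 3.82 ± 0.29). LOGL3, of the family that activates cytokinins, averaged 17.5 in TPA and 524 in PMA (-4.78), and the phosphotransfer protein AHP1 averaged 285 in TPA and 3950.0 in PMA (-3.78). CKX4, a cytokinin oxidase, was called higher, but its TPA arrays read 372, 1085 and 29.9 against 6.85, 6.86 and 8.43 in PMA, and the call was lost with only the 6 arrays, with values under 10 set to 10, with the replicate block and without TPA replicate 1, TPA replicate 2 or any 1 of the PMA replicates.

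**Figure D4:**
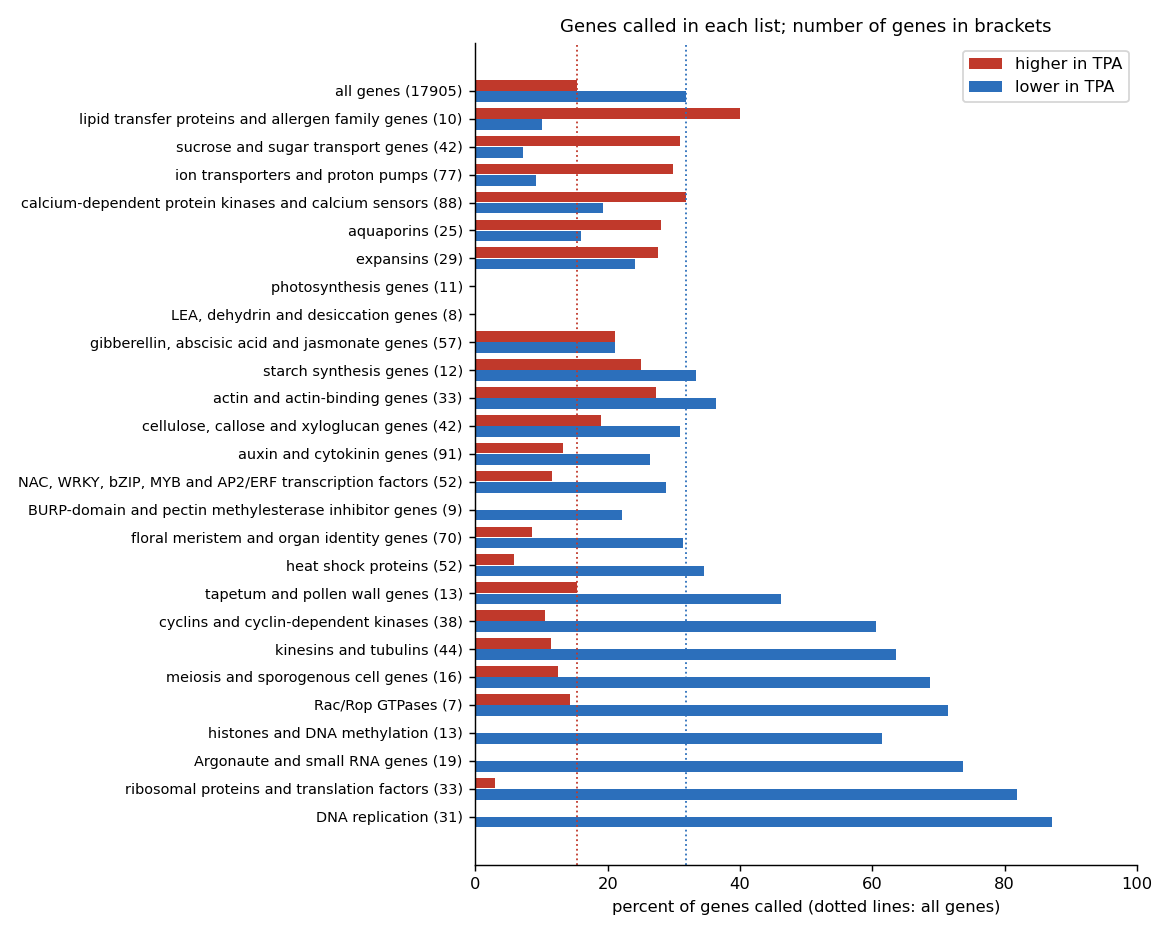
Percent of the measured genes of each list that were called higher and lower in TPA than in PMA, with dotted lines at 15.4% higher and 31.8% lower, the shares of all genes. Argonaute, DNA replication and ribosomal lists have nearly only falls among their calls, and calcium, sugar and ion transport lists more rises than falls.

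The 15 largest falls were mostly transcripts that were strong in PMA and still present in meiosis, 13 of them with a mean over 100 in MA. Small heat shock proteins led, chaperones that hold unfolded proteins. HSP26.2 gave 10.5, 6.19 and 14.1 in TPA and 9299.9, 6100.0 and 4574 in PMA (log2 -9.36 ± 0.60, adjusted p = 1.47e-06). In MA it was at 9689, above each PMA array. HSP18.6 gave 13, 30.4 and 8.76 in TPA and 4069, 10416 and 3338 in PMA (log2 -8.43 ± 0.53) and was at 92.7 in MA. Both are read by probe sets that can match related transcripts. BGLU8, a beta-glucosidase, gave 13.2, 9.72 and 5.82 in TPA and 2633, 3261 and 3198 in PMA (log2 -8.38 ± 0.25). INO1, the myo-inositol phosphate synthase, gave 83.6, 35.7 and 12.5 in TPA and 7576, 14581 and 7320.1 in PMA (log2 -8.13 ± 0.58).

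Regulators of the young organ followed. GRF6, a growth-regulating transcription factor, gave 14, 6.38 and 5.93 in TPA and 1502, 2001 and 1891 in PMA (log2 -7.79 ± 0.30). The Argonaute PNH1 changed by -7.72 ± 0.22, and the Argonaute MEL1, known from germ cells before meiosis, by -7.68 ± 0.43. MSP1, the receptor kinase that limits the number of sporogenous cells, gave 64.9, 24.9 and 55.6 in TPA and 5439, 7667 and 5625 in PMA (log2 -7.11 ± 0.37). FON1, the receptor kinase that restricts floral meristem size, lay outside the 15. It gave 23.1, 20.6 and 74.9 in TPA and 1962, 2389 and 1918 in PMA (log2 -5.98 ± 0.45). MCM2, KRP5, the zinc finger gene OsC3H23, LIR1, wsl8, the germin-like GER2 and the lipoxygenase LOX1.1 complete the 15, with log2 changes of -7.64 for OsC3H23 to -6.98 for LOX1.1. LOX1.1 had uneven PMA arrays (5106, 137 and 673, against 5.17, 6.06 and 7.40 in TPA) and was not called with only the 6 arrays. Of the 15, 3 were at or under 10 on all TPA arrays, and 11 had means over 100 in both MA and SCP. MEL1 was an exception, with 57.1 in MA and 16.1 in SCP.

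Cell division genes held more falls than rises. Of 38 cyclins, cyclin-dependent kinases (CDKs) and their regulators, 4 (10.5%) were higher (2 with only the 6 arrays) and 23 (60.5%) lower. The shares of all genes were 15.4% and 31.8%. The median log2 was -2.25, beside -0.25 for all genes. D cyclins bring cells into the cycle, and of 9, 8 were lower: CYCD3-1 averaged 10.8 in TPA and 598 in PMA (log2 -5.78) and CYCD4-1 averaged 6.16 in TPA and 279 in PMA (-5.53). CYCD5-2 was the exception, at 1959.7 in TPA and 573 in PMA, though not called with 6 arrays. The mitotic cyclin CYCB2-2 gave 6.12, 6.21 and 7.68 in TPA and 624, 333 and 1249 in PMA (log2 -6.59 ± 0.46), and the mitotic kinase CDKB2-1 averaged 19.4 in TPA and 1313 in PMA (-6.15). CYCB2-2 was higher still in MA, at 1268.

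The inhibitors of CDKs went both ways. KRP5 gave 6.66, 14.1 and 11.4 in TPA and 1370.1, 1683 and 1245 in PMA (log2 -7.12 ± 0.26), and KRP6 averaged 5.61 in TPA and 753 in PMA (-6.55). KRP1 averaged 339 in TPA and 53.2 in PMA (log2 2.58 ± 0.39) and 712 in SCP, and was not called with 6 arrays. Of 11 CDKs 1 (9.09%) was higher and 3 (27.3%) were lower, beside 15.4% and 31.8% of all genes. CDKF-4, of a CDK-activating class, was the strongest rise of the list, at 11550.2 ± 1825 in TPA and 1521 ± 262 in PMA (log2 2.93 ± 0.15). CDKA-1, the central CDK, averaged 355 in TPA and 1814 in PMA (-2.36).

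DNA replication genes had no rise: of 31, 27 (87.1%) were lower (16 with only the 6 arrays), beside 31.8% of all genes. The median log2 was -2.87 (-2.28 with the common median). The MCM helicase opens DNA at origins, and 7 of its 8 listed relatives were lower, by a median of -5.14. MCM2 gave 12.6, 5.30 and 9.995 in TPA and 1434, 893 and 1828 in PMA (log2 -7.25 ± 0.40), MCM3 gave 13.4, 23 and 22.3 in TPA and 1205, 635 and 1551 in PMA (-5.80 ± 0.39), and MCM5 and MCM6 averaged 22.6 and 9.94 in TPA and 1090.1 and 562 in PMA. MCM levels declined step by step, with MCM2 at 388 in MA and 68.5 in SCP. MCM9 was near the floor at both ends. All 5 subunits of the origin recognition complex were lower, by log2 changes of -3.17 for ORC3 to -1.74 for ORC5, whose call was lost with only the 6 arrays, the common median, values under 10 set to 10, array weights, the replicate block and without TPA replicate 1, TPA replicate 2 or PMA replicate 1. PCNA, the sliding clamp, averaged 39.9 in TPA and 1111 in PMA (-4.73), and POLD1, the catalytic subunit of DNA polymerase delta, averaged 8.53 in TPA and 384 in PMA (-5.48).

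Replication protein A coats single-stranded DNA, and its paralogues parted. RPA1B gave 7.07, 7.73 and 7.76 in TPA and 592, 292 and 1109 in PMA (log2 -6.26 ± 0.49), while RPA1A averaged 581 ± 42 in TPA and 536 ± 138 in PMA and RPA14 averaged 2822 ± 593 in TPA and 4092 ± 230.0 in PMA, neither of them called.

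Kinesins move along microtubules in spindles and cell plates. Of 33, 3 (9.09%) were higher and 21 (63.6%) lower, beside 15.4% and 31.8% of all genes, and the median log2 was -2.71. The counts were 1 and 13 with only the 6 arrays, and 6 and 20 with the common median. KIN12C, of a group that guides the cell plate, gave 13.1, 19 and 6.23 in TPA and 429, 212 and 835 in PMA (log2 -5.19 ± 0.57), and KIN10C averaged 7.59 in TPA and 272 in PMA (-5.10). KIN14L rose, to 875 ± 71.5 in TPA, against 257 ± 33.1 in PMA (log2 1.77 ± 0.11), as did KIN7J, to 2201 in TPA, against 925 in PMA, though KIN7J not with 6 arrays. Histones package DNA, and 4 of 5 H2B genes were lower (2 with only the 6 arrays). H2B.10 averaged 653 ± 132 in TPA and 4583 ± 1045 in PMA (log2 -2.80 ± 0.19), H2B.7 averaged 2367 in TPA and 12305 in PMA, and H2B.11, not called, 4908 in TPA and 5741 in PMA. The DNA methyltransferase CMT3, which methylates CHG sites, gave 7.91, 6.87 and 12.1 in TPA and 219.5, 127 and 479 in PMA (log2 -4.77 ± 0.43), and 1 of the 2 MET1 genes, which keep CG methylation, averaged 37.8 in TPA and 749 in PMA (-4.22). The other was near the floor at both ends.

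**Figure D5:**
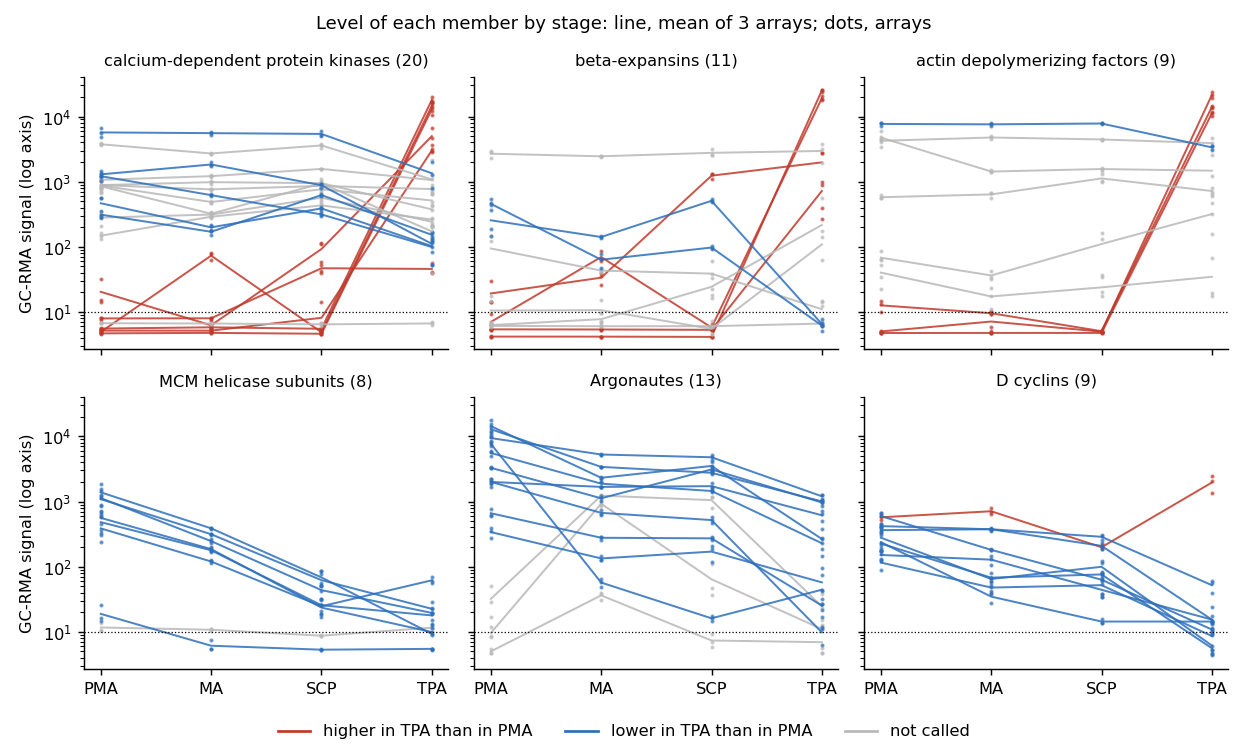
Level of each gene (lines, mean of 3 arrays, log axis) at the stages PMA, MA, SCP and TPA. The genes are 20 CPKs, 11 beta-expansins, 9 actin depolymerizing factors, 8 MCM genes, 13 Argonautes and 9 D cyclins. Leading CPKs and ADFs stay near the floor until TPA, while MCM genes decline over MA and SCP.

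Genes of the ribosome were among the most uniform falls. Of 33 ribosomal protein and translation factor genes 27 (81.8%) were lower and 1 (3.03%) higher, beside 31.8% and 15.4% of all genes. The median log2 was -2.49, with median levels of 1922 in TPA and 10716 in PMA. The falls were moderate in size and many of the genes stayed well above the floor. RPL7A-2 averaged 839 ± 243 in TPA and 10526 ± 426 in PMA (log2 -3.69 ± 0.16), RPS3A averaged 1859 in TPA and 17822 in PMA (-3.26), and RPL5 averaged 2244 in TPA and 16688 in PMA (-2.92). RPL18 went furthest, to 20.4, 29.5 and 10.1 in TPA, against 787, 554 and 846 in PMA (log2 -5.30 ± 0.36). RPS14 was the only one called higher, at 6982 ± 450.1 in TPA and 1830.5 ± 276 in PMA (log2 1.94 ± 0.10). The initiation factor genes differed: eIF-4A-1 averaged 1949 in TPA and 12298 in PMA (-2.65), while eIF-4A-3 averaged 5158 ± 727 in TPA and 4075 ± 380.1 in PMA and was not called.

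Argonautes carry small RNAs to their targets. Of 19 Argonaute and small RNA genes, 14 (73.7%) were lower and none higher, beside 31.8% and 15.4% of all genes. The median log2 was -2.97. Besides PNH1 and MEL1, AGO1D gave 380.3, 188 and 231 in TPA and 13804, 11744 and 17703 in PMA (log2 -5.80 ± 0.25). AGO1B averaged 1005 in TPA and 12915 in PMA (-3.67), and AGO4B and AGO4A, of the class that directs DNA methylation, averaged 229 and 1205 in TPA and 5579 and 9433 in PMA. The uncalled Argonautes were those low at both ends: AGO18 averaged 24.6 in TPA and 32.1 in PMA and AGO3 averaged 11 in TPA and 9.59 in PMA, although AGO18 reached 1233 and AGO3 925 in MA. The Dicer gene DCL2A was at 2627 ± 513 in TPA and 2422 ± 404 in PMA.

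Of 16 genes of meiosis and sporogenous cells 11 (68.8%) were lower and 2 (12.5%) higher, beside 31.8% and 15.4% of all genes. With only the 6 arrays 9 were lower and 1 higher. MEL1 gave 73.8, 42.3 and 16.9 in TPA and 8295, 7090.4 and 7762 in PMA. DMC1, the meiotic recombinase, averaged 23.1 ± 2.19 in TPA and 569 ± 185 in PMA (log2 -4.57 ± 0.22), MSH5, which stabilises crossover intermediates, averaged 8.34 in TPA and 330.4 in PMA (-5.32), and PAIR2, of the chromosome axis, averaged 26.3 in TPA and 621 in PMA (-4.62), after 3558 in MA. SPO11-3, a subunit of topoisomerase VI, rose to 534 ± 38 in TPA, against 105 ± 25 in PMA (log2 2.36 ± 0.18). MER3, a crossover helicase, averaged 115 ± 55.3 in TPA and 26.5 ± 5.11 in PMA, a rise not called with 6 arrays. Several genes of this list were discussed by the study from these arrays, so that their direction is no independent evidence.

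Floral regulators were mixed. Of 70 genes of floral meristem and organ identity 6 (8.57%) were higher and 22 (31.4%) lower, beside 15.4% and 31.8% of all genes. With only the 6 arrays 2 were higher and 13 lower. Their median log2 of -0.32 turned to 0.26 with the common median. The 31 MADS-box genes split into 3 higher (9.68%) and 8 lower (25.8%), both smaller shares than among all genes. With the common median this was 5 and 5, and with only the 6 arrays 1 and 4. MADS27 gave 1066, 1211 and 1698 in TPA and 5.39, 5.39 and 5.49 in PMA (log2 7.90 ± 0.14) and was absent in MA and SCP. The stamen genes MADS2 and MADS16, which set stamen identity, stayed high at both ends, with MADS2 at 11572 ± 2963 in TPA and 9388 ± 1266 in PMA and MADS16 at 8041 ± 1852 in TPA and 12884 ± 1593 in PMA, neither called. MADS15 gave 45.5, 37 and 45 in TPA and 358, 329 and 507 in PMA (log2 -3.21 ± 0.23), and MADS6 averaged 11.7 in TPA and 194 in PMA (-4.03).

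SPL transcription factors time phase changes, and 7 of 12 (58.3%) were lower, beside 31.8% of all genes. The count was 4 with only the 6 arrays and 4 with the common median. SPL14 gave 5.71, 5.42 and 5.42 in TPA and 572, 898 and 579 in PMA (log2 -6.92 ± 0.29), and SPL12 averaged 16.4 in TPA and 492 in PMA (-5.08). SPL18 went the other way, with 2046, 1721 and 3109 in TPA and 5.46, 5.04 and 7.90 in PMA (log2 8.53 ± 0.31). YABBY genes, regulators of lateral organs, were lower in 4 of 7 cases, led by YAB4, at 8.23 in TPA and 183 in PMA (log2 -4.46 ± 0.24).

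Of 52 other transcription factor genes 6 (11.5%) were higher and 15 (28.8%) lower, beside 15.4% and 31.8% of all genes. The counts were 4 and 8 with only the 6 arrays, and 11 and 13 with the common median. Their median of -0.34 turned to 0.25 with the common median. The bZIP factor BZIP02 gave 1690.5, 2621 and 3160.5 in TPA and 11, 9.80 and 19.5 in PMA (log2 7.56 ± 0.32), and NAC010 gave 1238, 572 and 918 in TPA and 4.99, 4.70 and 6.15 in PMA (7.37 ± 0.75), after 419 in SCP. TGAL11, of the TGA class of bZIP factors, averaged 28.3 ± 11 in TPA and 873 ± 156 in PMA (log2 -5.0 ± 0.26), and BZIP39 averaged 358 in TPA and 2847 in PMA (-2.99). The MYB gene myb30 was not called, at 1803 ± 850.3 in TPA and 1750.3 ± 117 in PMA.

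Of 52 heat shock genes 18 (34.6%) were lower, close to the 31.8% of all genes, and 3 (5.77%) higher, beside 15.4% of all genes (5 higher with the common median). Of 19 small heat shock proteins 4 (21.1%) were lower, a smaller share than among all genes, and none higher: besides HSP26.2 and HSP18.6, hsp17.9 averaged 1827 in TPA and 11894 in PMA (log2 -2.95, not called with 6 arrays) and HSP17.7 averaged 52.4 in TPA and 681 in PMA (-3.67). Of 20 heat shock factors, which switch on chaperone genes, 10 were lower (6 with only the 6 arrays). HSFA2C averaged 115 in TPA and 1748 in PMA (log2 -3.82 ± 0.34). HSF23 was the one that rose, to 235, 73.1 and 254 in TPA, against 12.8, 21.6 and 8.68 in PMA, a call not made with only the 6 arrays. CLPD2, a chloroplast protease chaperone, averaged 202 ± 28.3 in TPA and 36.8 ± 8.09 in PMA (log2 2.47 ± 0.21).

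Desiccation genes of the late embryogenesis abundant (LEA) group were not called by limma, 0 of 8 in either direction (4 at an unadjusted p under 0.05, 0 with only the 6 arrays, and 1 higher and 1 lower with the common median). Of all genes 47.2% were called. The dehydrin Dhn1 was bright at both ends, with 12099, 14119 and 6995 in TPA and 4128, 5036 and 8530.3 in PMA (log2 0.92 ± 0.32, adjusted p = 0.0438). RAB21 gave 649.7, 1320.3 and 4.54 in TPA and 1429, 4435 and 1827 in PMA, so that a single TPA array lay at the floor and the arrays do not agree. Photosynthesis genes gave 0 limma calls among 11 (4 at an unadjusted p under 0.05 and 0 with only the 6 arrays), and CAB2R, a light-harvesting protein gene, gave 959, 49.8 and 383 in TPA and 81, 77.1 and 869.8 in PMA.

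Most of the 13 tapetum and pollen wall genes peaked between these ends. In TPA 2 (15.4%) were higher and 6 (46.2%) lower, beside 15.4% and 31.8% of all genes. With only the 6 arrays 1 was higher and 5 lower. EAT1, a bHLH regulator of tapetal death, gave 27.3, 7.30 and 6.76 in TPA and 999, 306 and 1088 in PMA, with 8988 in SCP, and was not called with 6 arrays. BHLH142, another tapetal bHLH regulator, averaged 34.5 in TPA and 2062 in PMA (log2 -5.95 ± 0.38) and 5826 in MA. CYP703A3, a hydroxylase for sporopollenin precursors, was at 10.2 ± 0.202 in TPA and 83.1 ± 10.6 in PMA and at 45341 in SCP. RTS was the exception, with 4240.4, 4195 and 587 in TPA and 4.75, 4.80 and 4.82 in PMA (log2 8.83 ± 0.64) and less than 10 in MA and SCP. Of 10 lipid transfer and allergen family genes 4 were higher and 1 lower (1 and 1 with only the 6 arrays), led by LTP (1897, 664 and 2607 in TPA, 79.5, 22.9 and 28.8 in PMA) and LTP-2 (262 in TPA, 7.16 in PMA), the call of LTP not holding with 6 arrays.

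Other transcripts stayed within 2-fold between both ends. Of 20289 probe sets with means over 10 at both ends, 4574 (22.5%) had a 95% interval that lay wholly within 2-fold, in 2656 genes, and 5410 were neither called nor placed within 2-fold. Among those with a symbol and both means over 1000 there were 153 genes. GF14F changed by 0.12 (95% interval -0.018 to 0.26), GOS2 by -0.34 (-0.55 to -0.14) and TIP2-2 by 0.35 (-0.094 to 0.79). With the common median the change of GOS2 turned to 0.24. APX2, a second ascorbate peroxidase, averaged 15428 ± 6395 in TPA and 14309.5 ± 762 in PMA. The glycolytic enolase ENO1 averaged 13646 ± 823 in TPA and 11230 ± 979 in PMA, and GAPC, another glycolytic enzyme, 8774 ± 1482 in TPA and 12343 ± 697 in PMA, a log2 change of -0.50 that turned to 0.082 with the common median.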

How the data were processed

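RNA of whole anthers at 4 stages was hybridised to 12 Affymetrix rice arrays, 3 per stage. The authors labelled total RNA, scanned the arrays and deposited linear GC-RMA intensity values, which they had normalized together with arrays of other tissues that are not analysed here. GC-RMA corrects for probe GC content, equalises the distributions of arrays and summarises each probe set. Because of this step a weak signal is pressed to a floor, where replicate spread is small, so that folds against silent genes are uncertain in size. With 3 arrays a stage, the array number limits the precision. One person prepared the MA arrays and another the PMA, SCP and TPA arrays.

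Of 57381 probe sets, 123 controls were left out. Signals were log2-transformed and fitted by limma 3.58.1 in R 4.3.3 (lmFit and eBayes, 12 arrays, 8 residual degrees of freedom), and tabulated with Python 3.11.15, pandas 2.3.3, numpy 2.4.6 and matplotlib 3.10.9. A probe set was called where its fold was at least 2 and its p, Benjamini-Hochberg corrected over all 57258 probe sets, was 0.005 or less. The reference tables pair 22436 probe sets with 1 gene alone (17905 genes, 2452 with a symbol), and 34727 are not listed there. A gene is measured by the brightest of its own probe sets. On simulated arrays the fit called 4 of 50 probe sets changed 2-fold, 35 of 50 changed 4-fold and 41 of 50 changed 8-fold, with 0 false calls. The simulated noise was independent and had the same spread at every stage, as the fit assumes. Changes were placed only in probe sets averaging over 50. The simulation therefore cannot show how many false calls arise where TPA arrays are noisier than PMA arrays.

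The comparison, its members and the 26 gene lists were chosen with earlier results of these data known. Lists were filled from gene symbols, false matches were removed by hand, and families described only by function words were reduced to those with symbols. Named genes are the 15 largest rises and falls, the 10 highest levels of either stage, up to 3 rises, 3 falls and 2 uncalled genes of each list, the markers and genes the study names. Further list members were named after their values were seen. Of 49 markers, 17 matched no measured gene. Replicate numbers are shared by the stages in the labels but were not used as pairs. The alternatives were other fits, tests, normalizations, filters, limits and the leaving out of each array.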

Additional observations from a re-analysis of the deposited data

Results flagged for a closer look

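A control probe set for an elongation factor 1-alpha of Magnaporthe, the rice blast fungus, gave a signal on the TPA arrays, outside the rice probe sets that were compared. It read 112, 137 and 162 on the TPA arrays, a mean of 137 ± 24.9 (SD, n = 3), and 4.52, 4.51 and 4.56 on the PMA arrays. A second probe set for the same part of the gene read 4.19, 16.1 and 27.4 in TPA and stayed near 4.1 in PMA. The probe sets for the middle and the 5′ part of the gene stayed under 6 on all of these arrays. Whether the signal comes from the fungus was not tested.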

How the results depend on the processing

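None of the 14081 called probe sets was called the other way under any alternative that tested it, although with values under 10 set to 10 the difference of 3 no longer had the same sign. The balance of higher and lower counts did turn with the common median. With only the 6 TPA and PMA arrays in the fit, 5845 probe sets were called lower, against 9167 with all 12, and an equal-variance t-test on the 6 arrays called 6820 (2810 higher, 4010 lower). Both use 4 residual degrees of freedom in place of 8. The common median shift gave 7608 higher and 7208 lower among probe sets over 10, and quantile normalization 5693 higher and 7778 lower. At 4-fold 9372 were called, 6015 of them lower, and counting genes gave 8458 (2762 higher, 5696 lower). Leaving out each array in turn gave 13154 to 14325 called, 4631 to 5280 higher and 8495 to 9045 lower.

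Of 917 list genes, 464 were called (155 higher, 309 lower), and 244 by the t-test (87 higher, 157 lower), among them 0 LEA and 0 photosynthesis genes. Without single arrays the range was 446 to 487 (149 to 164 higher, 293 to 323 lower). The probe sets placed within 2-fold numbered 4162 to 4594 without single arrays. The replicate block, which uses the replicate numbers of the labels, called 13455 probe sets (4728 higher, 8727 lower) and 453 list genes. Same-numbered arrays did not deviate together (r of -0.0648, -0.0402 and -0.00302), so that the numbers pair nothing. Of 217 genes named by the rule, 34 lost their call with only 6 arrays, 53 with the t-test, 15 at 4-fold and 2 with the replicate block.

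Promoter motifs, with their alternatives of window and fold, were not run, since no promoter sequences were at hand. The array number limits the precision. In simulated arrays with the same spread at every stage, 4 of 50 changes of 2-fold, which lie at the fold limit itself, and 35 of 50 of 4-fold were called.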
